A study of Homo sapiens with 12 samples.

Results

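The genes described here are the 10 that encode the subunits of the transcription factor NF-κB and the inhibitors that it induces against itself or that hold it in the cytoplasm: NFKB1, NFKB2, REL, RELA, RELB, NFKBIA, NFKBIB, NFKBIE, TNFAIP3 and BIRC3. They were chosen by name and not by any measured value, and all 10 of 10 were found among the 26485 genes listed. The data are sequenced polyA RNA of HEK293T, a line of human embryonic kidney that carries a viral large T antigen, after transfection with polyethylenimine. The cells of all groups received a PX330-GFP plasmid, a vector that carries a single guide RNA (sgRNA, called a guide here) and a green fluorescent marker. There were 4 groups of 3 libraries: the 6T sgRNA with Cas9, the 6T sgRNA without Cas9, the Luciferase sgRNA with Cas9 and the Luciferase sgRNA without Cas9. Cas9 is the nuclease that an sgRNA directs to its target. Luciferase is a gene that human cells lack, and the target of the 6T sgRNA was not given in the sources used here.

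For each sgRNA the values came as the means of 2 conditions, A and B. No header states which of them held Cas9, nor whether A and B stand for like states with both guides. Every difference is therefore given as B relative to A, with no direction for Cas9, and a comparison of the guides within A or within B may set like or unlike Cas9 states side by side. The labels do not say whether the 3 libraries of a group were separate cultures, and p-values then measure only the spread between these samples, which may be technical. Nor do they mention whether transfected cells were selected, so a library may hold cells that took up plasmid together with cells that did not.

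The whole reads of each library were worked out from the deposited means. Libraries are called A1 to A3 and B1 to B3 in order of their size factor, and these are not the replicate numbers of the labels. Reads in genes ranged from 5904053 to 8298533 in 9 libraries and from 19399375 to 38076941 in the 3 libraries of Luciferase B. All 7 HEK293T markers had a mean of at least 10 normalized reads, with summed levels of 10919 to 13483. Of the markers of blood and immune cells, CD3E and MS4A1 were at 0 in every library. Luciferase A1 was the library whose levels moved most with base composition, as given beside the members' results that it touches. The levels of other libraries, with both guides, moved with base composition too.

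NF-κB proteins act as pairs of subunits that bind a short DNA motif, the κB site. RELA, RELB and REL carry domains that activate transcription. NFKB1 and NFKB2 encode precursors that are cut to the partners which bind DNA but lack such a domain. In resting cells the inhibitors NFKBIA, NFKBIB and NFKBIE (IκBα, IκBβ and IκBε) hold the pairs in the cytoplasm. Signals from receptors of the tumour necrosis factor, interleukin and Toll-like families activate a kinase complex that marks the inhibitors for breakdown, and a second route through the kinase MAP3K14 has NFKB2 cut and releases RELB. NF-κB then raises its own brakes: NFKBIA, TNFAIP3, which edits ubiquitin chains on the receptor complexes, and BIRC3, a ubiquitin ligase of the same complexes, which is why these genes are widely read as a sign that the pathway is on.

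The κB sites in front of these genes are shown because they are the sequences through which the brakes and several subunits are known to follow NF-κB itself. RefSeq promoter windows (GRCh38.p14), from 250 bases before to 50 bases after a transcript start, were found for 8 of the 10 genes, with 13 windows in all. RELB and NFKBIE had no entry. The motif searched, on both strands, was the 10-base κB consensus: 3 G, a purine, any 2 bases, 2 pyrimidines and 2 C. It was present in 8 of the 13 windows and in 7 of the 8 genes. Over all promoter windows of that length the share was 11.3% (3956 of 35116), and by gene symbol it was 13.3%. RELA had 2 windows and no match in either. Below, 30 bases are given for 1 site of each gene, on the gene's strand, with the motif in capitals. Where 2 matches overlap or lie within 3 bases of each other, both are in capitals.
NFKBIA, chr14:35404811-35404840, minus strand: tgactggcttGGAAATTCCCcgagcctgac
TNFAIP3, chr6:137867188-137867217, plus strand: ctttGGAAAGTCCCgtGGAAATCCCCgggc
BIRC3, chr11:102317275-102317304, plus strand: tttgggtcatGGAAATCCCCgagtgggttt
NFKBIB, chr19:38899932-38899961, plus strand: ggcgtggtgGGGAATTTCCCgcagggcgga
NFKB1, chr4:102501300-102501329, plus strand: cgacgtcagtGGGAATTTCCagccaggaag
NFKB2, chr10:102394462-102394491, plus strand: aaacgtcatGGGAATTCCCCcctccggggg
REL, chr2:60881518-60881547, plus strand: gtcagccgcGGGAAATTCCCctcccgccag

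In the 3 brakes NFKBIA, TNFAIP3 and BIRC3 the motif read on the strand opposite to the gene, and in NFKB1 on the gene's own strand. Overlapping matches on both strands gave the longer capitals of NFKB2, REL and NFKBIB. Distances count from the RefSeq start. In GENCODE v29 the gene begins earlier, so that the printed bases of TNFAIP3, NFKB2 and NFKBIB, nearly all of those of REL and the last base of NFKB1 fall within the gene bounds given further on. TNFAIP3 held 2 sites, from 67 to 58 and from 55 to 46 bases before its RefSeq start. BIRC3 held a second match, from 135 to 126 bases before the start, NFKB2 had 3 further sites and NFKBIB 1, from 38 to 47 bases after the start, which are not shown. A match describes the letters in the window and shows neither binding nor its absence.

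Compared per kilobase of exon, RELA was the highest of the 10 genes, with a median of 349 normalized reads per kb over the 12 libraries and a range of 269 to 425. NFKBIB followed at 323 (275 to 437) and NFKB2 at 255 (200 to 315). These ranges overlapped from one to the next. NFKBIA came next at 128 normalized reads per kb (107 to 158), below the whole range of NFKB2 and above that of NFKB1, at 71.1 (64.0 to 78.4). The highest inhibitor transcript per kb in these cells was thus that of NFKBIB, which is not among the brakes best known to be raised by NF-κB, and not that of NFKBIA.

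NFKBIE (61.4 normalized reads per kb, 52.4 to 79.4) and RELB (57.5, 46.3 to 85.5) overlapped each other and NFKBIE overlapped NFKB1. TNFAIP3 (16.5, 12.8 to 23.4) and REL (15.7, 7.19 to 21.0) formed a lower pair whose ranges also overlapped. BIRC3 was at 0.987 normalized reads per kb (0.448 to 1.90), below all others. Among 13248 fitted genes with an annotated length, RELA and NFKBIB lay at the 85.6th and 84.4th percentiles of level per kb, NFKBIA at the 63.7th, TNFAIP3 at the 17.9th and REL at the 17.0th. BIRC3 was not among the genes fitted. The lengths are those of merged exons in GENCODE v29, which may not be the authors' annotation.

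**Figure D1:**
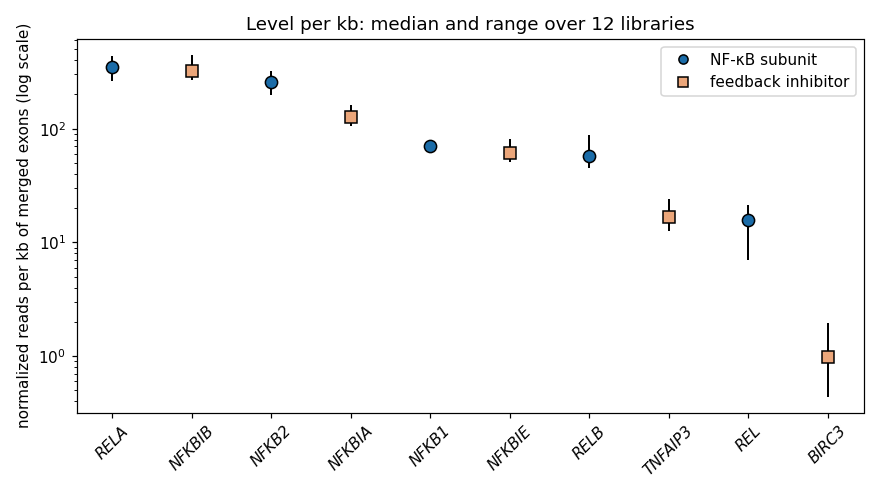
Level of each gene per kb of merged exons (vertical log axis, normalized reads per kb), with the median as a symbol and the range over 12 libraries as a line; circles are subunits and squares inhibitors. RELA, NFKBIB and NFKB2 lie highest with overlapping ranges and BIRC3 lowest, at a median of 0.987.

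No member passed the test between A and B with either guide. In the authors' deposited table for the 6T guide, 0 of the 10 genes had an adjusted p under 0.05 and 0 had an unadjusted DESeq p under 0.05, against 8 (0.0416%) and 167 (0.868%) of 19246 genes tested. In the authors' deposited table for the Luciferase guide the members again gave 0 and 0, against 0 (0%) and 246 (1.22%) of 20194 genes. The adjusted p of all 10 genes was 1 in both of the authors' deposited tables. Their log2 fold changes in the authors' deposited tables ran from −0.39 (TNFAIP3) to 0.26 (BIRC3) with the 6T guide, and from −0.40 (RELB) to 0.55 (REL) with the Luciferase guide. limma, fitted to the recovered reads of all 12 libraries for 13999 genes with a mean of at least 10 normalized reads, covered 9 of the 10 members. BIRC3 lay below that mean and was fitted only in a run without the filter. limma called 3 genes (0.0214%) with the 6T guide, 0 (0%) with the Luciferase guide and no member under either. At an unadjusted p under 0.05, limma gave 1 of 9 members with the 6T guide, against 3.1% of all genes, and 0 of 9 with the Luciferase guide, against 10.8%.

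**Figure D2:**
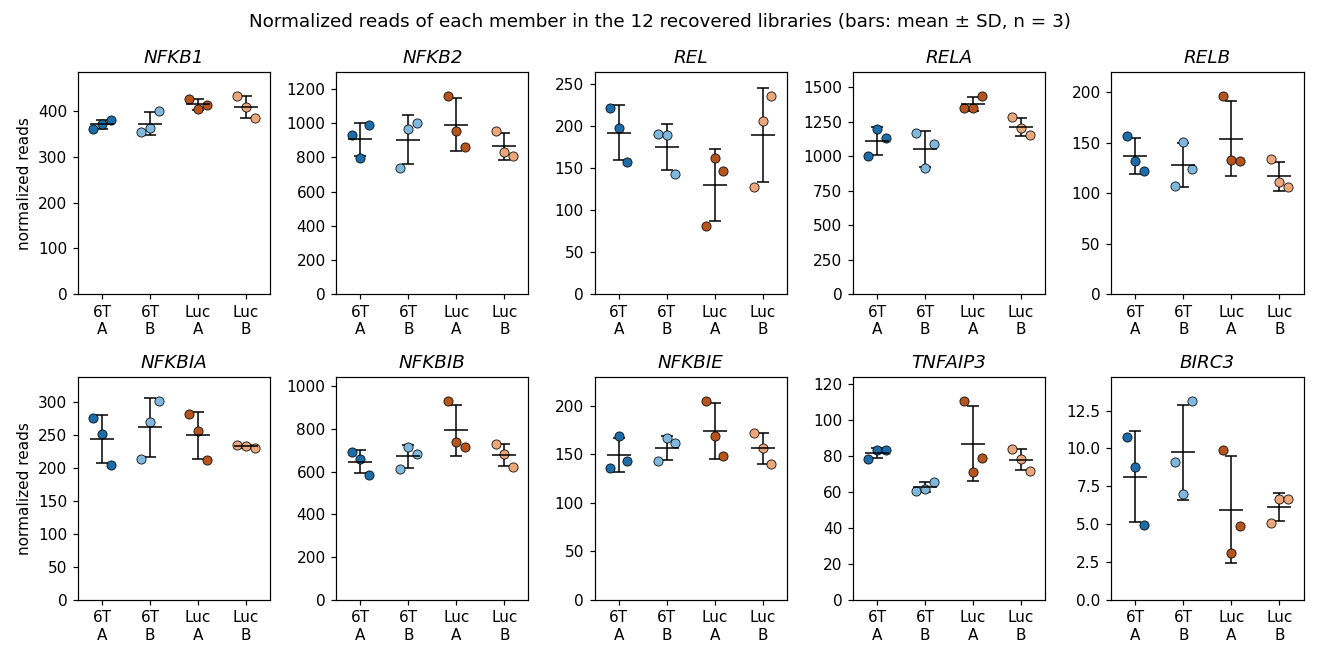
Normalized reads of each gene (vertical axes, linear from 0) in the 3 libraries of each group, ordered by size factor, with bars for mean ± SD (n = 3). TNFAIP3 in 6T B lies below all 6T A libraries, while REL in Luciferase A1 is the lowest of its 12 values.

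Among the subunits, NFKB1 varied least. In RNA pooled from many cells, fewer cells of a type and less RNA per cell cannot be told apart. Its 12 values lay between 353 and 433 normalized reads, with means of 371 ± 9.71 (SD, n = 3) in 6T A, 372 ± 24.8 in 6T B, 414 ± 11.4 in Luciferase A and 409 ± 24.1 in Luciferase B. The limma log2 difference of B from A was 0.00077 with the 6T guide, with a 95% interval from 0.872-fold to 1.15-fold, and −0.02 with the Luciferase guide, from 0.859-fold to 1.13-fold. NFKB1 lies on chromosome 4 (102501329 to 102617302, plus strand, hg38, as all positions here).

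NFKB2, the precursor used by the route through MAP3K14, had 929, 799 and 988 normalized reads in 6T A and 737, 968 and 1000 in 6T B, so the groups overlapped. It had 1160, 951 and 861 in Luciferase A and 954, 833 and 807 in Luciferase B, which overlapped too. The limma log2 differences were −0.01 (95% interval −0.31 to 0.29) and −0.19 (−0.49 to 0.11), the latter −0.07 without Luciferase A1. NFKB2 lies on chromosome 10 (102394110 to 102402529, plus strand) and RELB on chromosome 19 (45001430 to 45038198, plus strand). RELB, the partner of its product, had 157, 132 and 122 normalized reads in 6T A and 108, 151 and 124 in 6T B. With the Luciferase guide it had 197, 133 and 132 in A and 134, 111 and 106 in B. A single library, Luciferase A1, was far above the others for RELB, and the groups overlapped. The limma log2 difference of RELB with the Luciferase guide was −0.37 (SE 0.19, adjusted p = 0.444), and it was −0.19 without Luciferase A1.

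RELA, the main activating subunit in most cells, had 1000, 1198 and 1133 normalized reads in 6T A and 1168, 912 and 1088 in 6T B. Its values were 1351, 1349 and 1439 in Luciferase A and 1286, 1203 and 1157 in Luciferase B. All 3 values of Luciferase A lay above all 9 others. The gene lies on chromosome 11 (65653596 to 65663094, minus strand). RELA was the only one of the 9 fitted members whose Luciferase A and B values did not overlap, against 16% of all genes. The limma log2 difference of B from A was −0.08 with the 6T guide (SE 0.10, adjusted p = 1.00) and −0.18 with the Luciferase guide (SE 0.10, adjusted p = 0.445).

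REL, a subunit best known from lymphoid cells, was the most variable of the 9 fitted members, with a coefficient of variation of 25.5% over the 12 libraries. It had 222, 197 and 157 normalized reads in 6T A and 191, 190 and 143 in 6T B. With the Luciferase guide it had 81.0, 162 and 147 in A and 128, 206 and 236 in B. Luciferase A1 held the lowest of all 12 values, from 49 reads, and the deepest library, Luciferase B3, the highest. The limma log2 difference of REL with the Luciferase guide was 0.56 (SE 0.27, 95% interval −0.02 to 1.14, adjusted p = 0.444), the only positive one of the 9, and it was 0.25 without Luciferase A1. With the 6T guide it was −0.13 (−0.71 to 0.45). REL is a gene on chromosome 2 (60881521 to 60931610, plus strand), and in GENCODE v29 50.7% of its exon bases also belong to AC010733.2 on the same strand, so its count depends on how reads shared by both were treated.

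Among the inhibitors, NFKBIA had the flattest means. It had 275, 251 and 203 normalized reads in 6T A and 212, 270 and 301 in 6T B, and 281, 255 and 211 in Luciferase A and 234, 232 and 229 in Luciferase B. The groups overlapped with both guides. The limma log2 difference was 0.10 with the 6T guide (SE 0.16, 95% interval 0.848-fold to 1.35-fold) and −0.09 with the Luciferase guide (SE 0.16, 0.744-fold to 1.18-fold), the latter −0.00041 without Luciferase A1. The gene lies on chromosome 14 (35401511 to 35404749, minus strand), with the κB site printed above in front of its start. Neither interval reaches a change of 1.5 times in either direction.

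NFKBIB had 694, 658 and 587 normalized reads in 6T A, and 614, 716 and 684 in 6T B. It had 932, 738 and 715 in Luciferase A, and 729, 683 and 623 in Luciferase B. Luciferase A1 was again the highest of the 12. The gene lies on chromosome 19 (38899700 to 38908893, plus strand), and 40 of its exon bases overlap SIRT2 on the other strand. The limma log2 differences were 0.06 (SE 0.12) with the 6T guide and −0.22 (SE 0.12, adjusted p = 0.444) with the Luciferase guide, the latter −0.10 without Luciferase A1. NFKBIE, on chromosome 6 (44258166 to 44265788, minus strand), ranged from 135 to 205 normalized reads, highest in Luciferase A1, with log2 differences of 0.07 (−0.25 to 0.40) and −0.15 (−0.47 to 0.17), the latter −0.02 without Luciferase A1.

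TNFAIP3 gave the smallest p of the members with the 6T guide. It had 78.5, 83.6 and 83.3 normalized reads in 6T A, and 60.7, 61.4 and 65.7 in 6T B. All 3 values of B lay below all 3 of A, which held for 1 of 9 members and for 7.92% of all genes fitted. The means were 81.8 ± 2.89 and 62.6 ± 2.69 (SD, n = 3). The limma log2 difference was −0.38 (SE 0.17, 95% interval −0.75 to −0.02, unadjusted p = 0.0420), and it did not pass the test across genes (adjusted p = 1.00). The authors' deposited table gives TNFAIP3 a log2 fold change of −0.39 (unadjusted p = 0.128). These values rest on 40 to 68 reads per library.

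With the Luciferase guide, TNFAIP3 had 111, 71.1 and 78.8 normalized reads in A, and 83.8, 78.4 and 71.9 in B. The groups overlapped, with Luciferase A1 far above the rest. The log2 difference was −0.13 (SE 0.17) with that library and 0.06 without it. The difference between the guides was 0.25 (95% interval −0.27 to 0.77, adjusted p = 0.625 in limma), so the 6T value is not shown to differ from the Luciferase one. TNFAIP3 lies on chromosome 6 (137867188 to 137883312, plus strand).

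BIRC3, on chromosome 11 (102317450 to 102339403, plus strand), was barely detected, with 2 to 26 reads in a library. It had 10.8, 8.74 and 4.90 normalized reads in 6T A and 9.10, 6.98 and 13.1 in 6T B. It had 9.91, 3.09 and 4.85 in Luciferase A and 5.08, 6.66 and 6.65 in Luciferase B. Groups overlapped with both guides. In the run without a filter the log2 difference was 0.25 (95% interval 0.637-fold to 2.22-fold) with the 6T guide and 0.15 (0.593-fold to 2.07-fold) with the Luciferase guide. At this depth the intervals do not exclude a change of BIRC3 within those bounds.

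**Figure D3:**
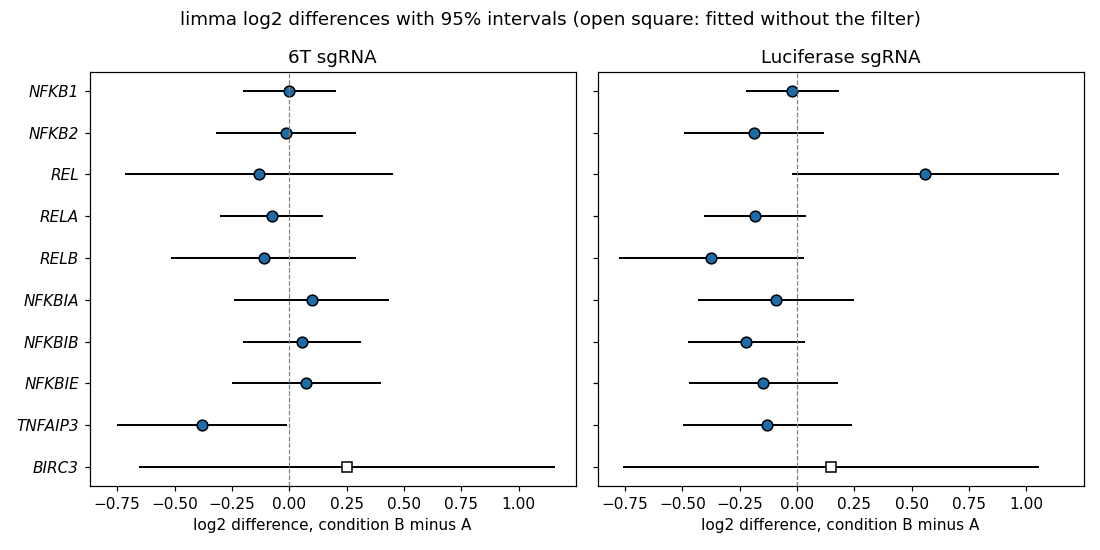
limma log2 difference of condition B from A (horizontal axes) for each gene with the 6T and the Luciferase guide, with 95% intervals as lines. The interval of TNFAIP3 with the 6T guide, from −0.75 to −0.02, excludes 0 before adjustment, and the intervals of BIRC3 (open square, no filter) span −0.65 to 1.05 or more with both guides.

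As a list, the members were split with the 6T guide, with 4 of 9 log2 differences above 0, 5 below and a median of −0.01, where all genes had a median of −0.02. With the Luciferase guide 8 of 9 were below 0, with a median of −0.15 where all genes had a median of 0.0014. Without Luciferase A1, 6 of 9 were below 0 and 3 above, with a median of −0.02. None of the 9 passed the test, and limma's smallest adjusted p among the 9 was 0.444. The difference of B from A between the guides was called by limma for 0 of 13999 genes (0%), and 0 of 9 members had an unadjusted p under 0.05 against 9.45% of genes. REL had the smallest p of it (log2 difference 0.69, 95% interval −0.13 to 1.51, adjusted p = 0.484).

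The levels under the 2 guides were also compared directly. Within condition A limma called 9 of 13999 genes (0.0643%) and no member, while 3 of 9 members and 31.4% of all genes had an unadjusted p under 0.05. RELA came nearest, with a log2 difference of Luciferase from 6T of 0.32 (SE 0.10, adjusted p = 0.0801). NFKBIB was at 0.29 (SE 0.12, adjusted p = 0.117) and REL at −0.60 (SE 0.27, adjusted p = 0.144). Groups did not overlap for RELA, NFKBIB and NFKB1, which is 3 of 9 members against 33% of genes.

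Without Luciferase A1 the log2 differences within condition A were 0.33 for RELA (adjusted p = 0.213), 0.17 for NFKBIB and −0.30 for REL. For RELA alone of these 3 the value was as large without that library. Within condition B, where the Luciferase libraries are the deeper ones, limma called 0 genes (0%) and no member had an unadjusted p under 0.05, against 5.41% of genes. The nearest were RELA, at 0.21 (adjusted p = 0.930), and TNFAIP3, at 0.31 (SE 0.17, adjusted p = 0.932). In condition B the values of TNFAIP3 did not overlap between the guides, as the only one of the 9 fitted members, against 12.9% of genes. Those of BIRC3, below the filter, did not overlap either (log2 difference −0.56, 95% interval −1.46 to 0.34, adjusted p = 0.949 without a filter).

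Base composition moved with these differences. Across 13248 genes, the log2 difference of B from A with the Luciferase guide had a Spearman's rho of −0.694 with the GC content of the transcript, and the difference of Luciferase from 6T within A one of 0.735. With the 6T guide the rho was 0.368, and within B it was 0.101. In single libraries it was most extreme in Luciferase A1, at 0.745, where the tenth of genes lowest in GC content lay at a median of −0.64 on the log2 scale. In Luciferase A1, 8 of the 10 members had the highest value of the Luciferase A group and 1, REL, the lowest. BIRC3, the member lowest in GC content (34.8%), was among the 8, at 9.91 normalized reads from 6 reads. No share over all genes is given for this count. Genes are not independent replicates, and these values describe the libraries.

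The members span this scale. The longest coding transcript of REL has a GC content of 38.7% and that of BIRC3 34.8%, against 49.5% for TNFAIP3, 50.1% for NFKB1, 53.1% for NFKBIA, 57.1% for RELA, 61.0% for NFKBIE, 62.3% for NFKBIB, 62.4% for NFKB2 and 65.4% for RELB. Over the 9 fitted members, Pearson's r between GC content and the log2 difference with the Luciferase guide was −0.89, a description of points that share the same 6 libraries. The 908 genes within 1 percentage point of REL's GC content had a median log2 difference of 0.33 beside the 0.56 of REL. The 374 genes near RELB had one of −0.14 beside its −0.37, and the 845 near NFKBIA −0.09, the same as NFKBIA itself.

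After a correction for GC content in each library, the median size of the members' log2 differences with the Luciferase guide was 0.06, where it had been 0.18. Pearson's r between GC content and these differences over the 9 members was still −0.77, beside −0.89 before the correction. REL then stood at 0.24 (SE 0.17), RELB at −0.23 (SE 0.15), RELA at −0.06 and NFKBIB at −0.08, all with an adjusted p of at least 0.833 in limma. Within condition A, RELA was at 0.15 (adjusted p = 0.466), NFKBIB at 0.07 and REL at −0.18 after the correction. TNFAIP3 with the 6T guide was at −0.34 (SE 0.17) after it, with an interval of −0.70 to 0.01 that includes 0, and no longer had an unadjusted p under 0.05 in limma. The share of each difference that belongs to base composition was not tested.

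**Figure D4:**
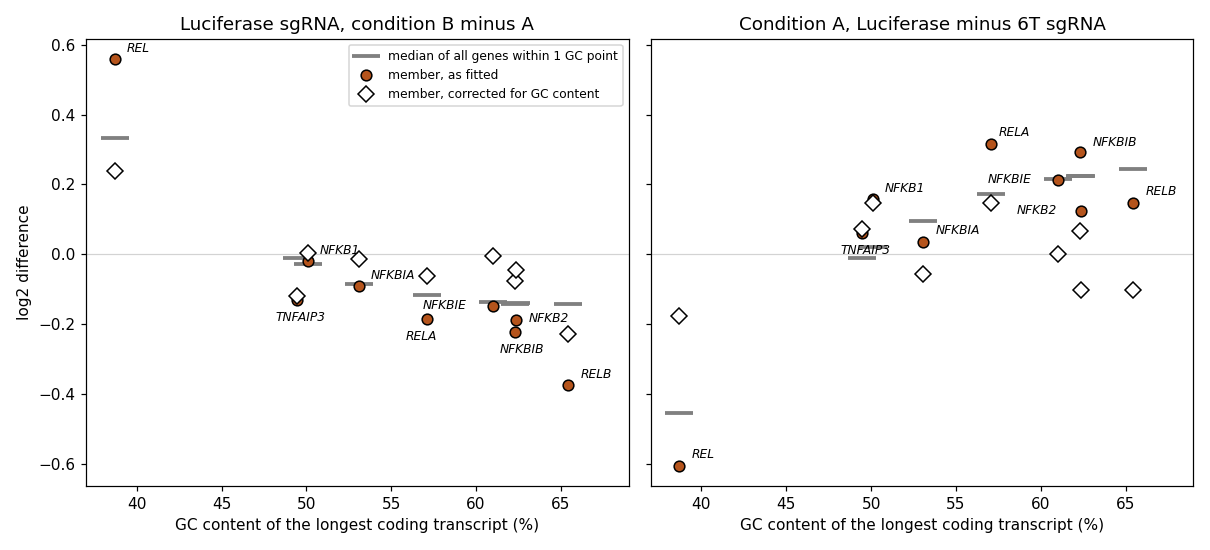
Log2 difference (vertical axis) of 9 members against the GC content of their longest coding transcript (horizontal axis, %), for B minus A with the Luciferase guide (left) and for Luciferase minus 6T within condition A (right); filled circles are as fitted, diamonds after correction for GC content and grey dashes the median of all genes within 1 percentage point. REL, at 38.7% GC, lies at 0.56 and −0.60 as fitted and at 0.24 and −0.18 after the correction.

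Ratios of reads within a library do not depend on how libraries are scaled, and 4 of them were compared in 16 tests, by a two-sided exact permutation test that cannot go below p = 0.1 with 3 libraries against 3. The ratio of NFKBIA to RELA, the inhibitor to its main partner, was 0.221 ± 0.0491 (SD, n = 3) in 6T A, 0.251 ± 0.0609 in 6T B, 0.181 ± 0.0314 in Luciferase A and 0.191 ± 0.00839 in Luciferase B. Its exact p-values were between 0.4 and 0.8, and the groups overlapped in all 4 comparisons. TNFAIP3 to RELA was 0.0739 ± 0.00435 in 6T A and 0.0599 ± 0.00773 in 6T B (exact p = 0.1, adjusted p = 0.533 over the 16 tests), with every library of A above every one of B.

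In the Luciferase groups the ratio of TNFAIP3 to RELA was 0.0631 ± 0.0163 in A and 0.0642 ± 0.00173 in B (exact p = 1, adjusted p = 1). REL to RELA was 0.175 ± 0.0425 in 6T A, 0.168 ± 0.0384 in 6T B, 0.0941 ± 0.0310 in Luciferase A and 0.158 ± 0.0535 in Luciferase B. The ratio was lower in every Luciferase A library than in every 6T A library (exact p = 0.1, adjusted p = 0.533), and these are genes of 38.7% and 57.1% GC content. The ratio of NFKBIA to NFKBIB was 0.375 ± 0.0258 in 6T A and 0.314 ± 0.0278 in Luciferase A, also without overlap (exact p = 0.1, adjusted p = 0.533), and its other 3 comparisons had exact p-values from 0.2 to 0.9.

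The highest positive correlations between members across the 12 libraries were those of GC-rich genes. Pearson's r of the log2 values was 0.83 for RELB with NFKBIB, 0.81 for NFKBIB with NFKBIE and 0.76 for NFKB2 with RELB. REL ran the other way, with r of −0.76 with NFKBIE and −0.74 with NFKB2. RELA, at 57.1% GC, had r of 0.71 with NFKB1, at 50.1% GC, which came next after the GC-rich pairs above. Its r was 0.51 with TNFAIP3, 0.36 with NFKBIB, 0.34 with NFKBIE, 0.018 with RELB and 0.013 with NFKB2. It was −0.34 with NFKBIA and −0.52 with REL. The points share libraries, depth and base composition, so no p is given.

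Among 11648 genes with a mean of at least 50 normalized reads, the pattern most like that of REL over the 12 libraries was that of PHF20L1 (r = 0.98), then DST and SPAG9, with GC contents of 39.5%, 41.3% and 42.1%. RELA was most like LRRC41, RNF40 and MAP1S (r = 0.98 each), and NFKBIB most like ABHD12 (0.97). NFKB1 was nearest to MTA2 (0.94), NFKB2 to SMG9 (0.96), RELB to CNPPD1 (0.93) and NFKBIE to FIZ1 (0.93). TNFAIP3 was nearest to LPIN3 (0.92), and NFKBIA had the weakest nearest pattern, that of IL15RA (0.85). In GC content LRRC41 was at 55.6%, ABHD12 at 59.8%, MTA2 at 55.4% and SMG9 at 55.3%. CNPPD1 was at 58.5%, FIZ1 at 59.3%, LPIN3 at 58.6% and IL15RA at 57.7%, to be read beside the members' own contents above. No gene of this family was among the 3 nearest of any member.

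Other genes of the pathway were taken from lists by role, with 90 genes of which 61 were fitted. Counts of their unadjusted p under 0.05 in limma stand beside shares over all genes of 3.1% with the 6T guide and 10.8% with the Luciferase guide. Values of these genes are not corrected for GC content. Across all genes, differences with the Luciferase guide and between the guides within A moved with it (rho −0.694 and 0.735). None of the 9 ligands reached a mean of 10 normalized reads. IL1B, TNFSF11 and CD40LG had no read in any library, TNF had 11 reads over the 12 libraries, LTA had 34, and the ligand with the highest mean over the 12 libraries was TNFSF12, at 6.55 normalized reads. Of 14 receptors 9 were fitted, and limma called 0 between A and B with either guide, with 0 at an unadjusted p under 0.05 with the 6T guide and 1 with the Luciferase guide, as in the authors' deposited tables. TNFRSF12A, the receptor of TNFSF12, had means of 267 ± 9.90, 301 ± 51.3, 453 ± 76.3 and 302 ± 10.7 normalized reads (SD, n = 3) in 6T A, 6T B, Luciferase A and Luciferase B. Its limma log2 difference was −0.57 with the Luciferase guide (adjusted p = 0.444) and 0.75 between the guides within A (adjusted p = 0.0511), neither past the test.

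Of 22 adaptors and ubiquitin ligases, a list that also holds the kinases IRAK1, IRAK4 and RIPK1, 21 were fitted. limma called none of them between A and B, with 0 (6T) and 2 (Luciferase) at an unadjusted p under 0.05. IRAK1, a kinase of the interleukin and Toll-like receptor complexes, gave with the Luciferase guide a limma log2 difference of −0.32 and MALT1, a protease of the lymphocyte arm, 0.75, each with an adjusted p of 0.444. The list of kinases also holds subunits that bind them and are not kinases (TAB1, TAB2, TAB3 and IKBKG). All 9 of its genes were fitted and limma called none. It gave 0 (6T) and 4 (Luciferase) at an unadjusted p under 0.05, where all genes gave 3.1% and 10.8%. Of these 9 genes 6 were above 0 and 3 below with the Luciferase guide, with a median log2 difference of 0.35, not corrected for GC content. Among them were MAP3K7 at 0.40, TAB3 at 0.37 and TAB1 at −0.23, members of the kinase complex upstream of the inhibitors. Whether these differences go with base composition was not tested. MAP3K14, which starts the route to NFKB2 and RELB, had means of 205 ± 10.2, 179 ± 13.8, 248 ± 33.8 and 256 ± 16.5 normalized reads in 6T A, 6T B, Luciferase A and Luciferase B. Its log2 difference between the guides within B was 0.51 (adjusted p = 0.704), while those of NFKB2 and RELB there were −0.05 and −0.12. All 11 further brakes were fitted and limma called none, with 1 (6T) and 2 (Luciferase) at an unadjusted p under 0.05. BCL3, a nuclear relative of the inhibitors, stood at 0.47 with the 6T guide (adjusted p = 1.00) and TAX1BP1, which helps TNFAIP3, at 0.31 with the Luciferase guide (adjusted p = 0.444).

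Of 25 target genes 11 were fitted and 1 was called. CCL5, a chemokine that other pathways also induce, fell from 18.2 ± 6.91 normalized reads in 6T A to 1.26 ± 1.20 in 6T B (SD, n = 3), a limma log2 difference of −3.20 (adjusted p = 0.0240). The authors' deposited table gives CCL5 a log2 fold change of −3.85 (adjusted p = 0.00554). In limma the call of CCL5 was lost without a filter (adjusted p = 0.0787) and without any one of 6T A1, A2, A3 and B2 and Luciferase A2, A3 and B2, with adjusted p from 0.0137 to 0.167 over the libraries left out. It was not fitted on the 6T table alone, where its mean of 9.73 normalized reads lay below the filter. With the Luciferase guide CCL5 had 36.2 ± 7.10 in A and 8.68 ± 1.37 in B, with a limma log2 difference of −1.94 (adjusted p = 0.444). The authors' deposited DESeq values there are −2.06, with an unadjusted p of 1.43e-05 and an adjusted p of 0.164. In limma the difference of B from A between the guides was 1.26 (adjusted p = 0.484), so the fall is not shown to differ between them. Of the other 10 fitted targets limma called 0, with 1 (BCL2L1, log2 difference 0.29 with the 6T guide) and 0 at an unadjusted p under 0.05 with the 6T and the Luciferase guide. SOD2, a mitochondrial enzyme and a standard target of NF-κB, had 594 to 715 normalized reads in the 12 libraries, CFLAR 262 to 405 and GADD45B 234 to 299. The cytokines CXCL8 and IL6 had at most 1.54 and 3.08 normalized reads in any library. Over all targets fitted the median log2 difference was −0.06 with the 6T guide and −0.10 with the Luciferase guide, beside −0.02 and 0.0014 for all genes.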

How the data were processed

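PolyA RNA of HEK293T cells was sequenced in 12 libraries. STAR (alignment), hg38, HTSeq (counting) and DESeq (test) are the authors' tools, per the submitters' processing notes, which give no versions. Use of strand in counting was not given in the sources used here. For each guide the authors deposited a table. Per the file headers its signal values, overall and per condition, are means of read counts after division by size factors. The ratio (fold) and its log2 are B over A, and the p-values are raw and adjusted, as deposited by the authors. Rows that name no gene were left out; reads without a gene or ambiguous were 23.4% to 23.9% of the summed means of a condition.

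Each low mean is a sum of whole multiples of 3 values, 1 per library, which gave the size factors. A search over whole reads then gave a single solution for 99.7% (Luciferase B) to 99.97% of genes above 0. Genes left out held 0.329% to 12.1% of a library's reads. The largest deviation of a size factor from a median-of-ratios factor over the 12 libraries was 0.0522%. limma 3.58.1 (R 4.3.3) was run with its trend option on log2(normalized reads + 1) over the 4 groups, for genes with a mean of at least 10, with Benjamini-Hochberg adjustment over 13999 genes. Fold changes are on that scale, which understates those of low genes. The scripts were tested on simulated data. GC content came from GENCODE v29 on hg38, to which 23899 of 26485 genes matched.

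Members, lists and tests were chosen with earlier results of these data known. Named genes were all members, called genes and some of the 3 smallest p-values of each list; CXCL8, IL6, SOD2, CFLAR, GADD45B and the ligands with no or few reads were named after their values were seen. Intervals are 95%. Alternatives were other pseudocounts (0.5 and 5), no filter, scaling by total reads or the upper quartile, voom weights, GC correction, each table alone and each library left out. Some results on single genes outside the members are not reported here.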

Additional observations from a re-analysis of the deposited data

How the results depend on the processing

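No paired analysis was possible because the recovered libraries carry no replicate numbers. For 45 member differences, 873 alternatives were computed. Some could not change sign, since dropping the filter, fitting each table alone or leaving out a library outside the comparison keeps the difference unchanged. Of the 873, 832 kept direction and side of the threshold, 40 changed sign and 1 became a call. That was RELA between the guides within A under upper-quartile scaling, at 0.40 (adjusted p = 0.0435 in limma). In that setting limma called 766 of 14002 genes, and all genes had a median log2 difference of 0.073. Under the other alternatives that kept all libraries the adjusted p of RELA was 0.0568 to 0.466. Changes of sign with all libraries kept were these. NFKB2 with the 6T guide was at 0.0035 scaled by total reads and 0.0073 with the upper quartile, and NFKBIE within B at 0.0018 by total reads. After GC correction, NFKBIB with the 6T guide was at −0.017, NFKB1 with the Luciferase guide at 0.0049, the difference between guides at 0.043 for NFKB2 and 0.038 for RELA, and within A NFKB2 was at −0.10, NFKBIA at −0.058 and RELB at −0.10.

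Leaving out each library in turn changed some signs. With the 6T guide the differences of B from A ranged from −0.053 to 0.036 for NFKB1, −0.10 to 0.13 for NFKB2, −0.27 to 0.0045 for REL, −0.15 to 0.026 for RELA, −0.24 to 0.0038 for RELB, −0.025 to 0.24 for NFKBIA and −0.011 to 0.12 for NFKBIB. With the Luciferase guide they ranged from −0.063 to 0.022 for NFKB1 and −0.26 to 0.056 for TNFAIP3, the latter positive without Luciferase A1. The difference between guides of NFKB1 ranged from −0.064 to 0.033. Within A, RELB ranged from −0.042 to 0.25, NFKBIA from −0.088 to 0.15 and TNFAIP3 from −0.13 to 0.19. Within B, NFKB2 ranged from −0.19 to 0.030, REL from −0.094 to 0.35, RELB from −0.23 to 0.0091, NFKBIB from −0.049 to 0.074 and NFKBIE from −0.082 to 0.067.

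Counts of called genes moved more. With the 6T guide the authors' 8 calls stand beside 3 in limma, which gave 1 without a filter, 5 with upper-quartile scaling, 0 on 1 table alone and 0 to 5 when a library was left out. With the Luciferase guide the 0 calls became 1 after GC correction and 0 to 1 with a library left out. Within A, 9 calls became 14 with a pseudocount of 5, 284 scaled by total reads, 766 with the upper quartile, 4 with voom weights and 0 to 1099 with a library left out, the highest without Luciferase A2. Within B, 0 became 1 after GC correction and 0 to 2 with a library left out. The cause was not tested. BIRC3, at 2 to 26 reads a library, is limited by depth.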
